A study of Mus musculus with 2 samples.

Results

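The 10 transcription factors described here were Gata1, Klf1, Nfe2, Gfi1b, Zfpm1, Tal1, Lmo2, Ldb1, Myb and Spi1, taken by gene symbol from the 31053 genes of the feature lists. Each symbol occurred 1 time, and all 10 genes were measured. They act in erythroid, megakaryocytic and progenitor cells, and they were followed in single leukemia cells from mice through their level, their detection beside globin and mast cell genes, and the ratio between both libraries of the series. Both groups shared the oncogene AE9a (AML1-ETO9a), in which AML1 is joined to a shortened ETO and which a retrovirus with GFP had brought into fetal liver cells, and both shared a floxed Usp18 gene and UBCER-Cre. UBCER-Cre is a recombinase driven by the broadly active ubiquitin C promoter and switched on by tamoxifen, so it is not restricted to one cell type. Sick recipient mice received either oil or tamoxifen, the genotype tags read Usp18f/f for the oil group and Usp18delta/delta for the tamoxifen group, and the treatment protocol instead describes Usp18+/f cells and loss of 1 allele. GFP+ Lin- c-Kit+ splenocytes, which lack mature lineage markers and carry the stem cell factor receptor Kit, were sorted 3 days after injections began. Each group was 1 library that pooled 3 mice, and no label ties a cell to a mouse. The labels used here give no age.

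In red cell development GATA1 binds DNA in complexes with TAL1, LMO2 and LDB1 and, through its cofactor FOG1, turns on globin and heme genes, while KLF1 binds CACC sequences in the same genes. MYB keeps progenitors immature and dividing and falls as red cells mature. PU.1, the product of Spi1, drives myeloid fate and can oppose GATA1, and mast cells are known as a lineage in which GATA and PU.1 factors act together.

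The libraries held 6838 kept cells labelled oil and 6472 labelled tamoxifen, with medians of 8622 and 8210 UMIs per cell, a UMI being a distinct captured transcript. Levels are UMIs scaled to a common library total (CPM), and because 1 end of each transcript is counted they can be set beside each other without a correction for gene length. Intervals are exact 95% counting intervals, except that those of differences in shares of cells are 95% normal approximations. With 1 library per group there was no replicate check and no test. A library level does not tell fewer expressing cells from less RNA per cell. Usp18, the gene to be deleted, stood at 5.62 CPM in the oil-labelled library and at 15.4 CPM in the tamoxifen-labelled library, opposite to the direction its deletion label gives, so the groups are called by their labels throughout. Whether the counted end of the Usp18 transcript lies in the deleted part was not tested. Kit, the sorted marker, stood at 171 and 232 CPM. Summed markers of other cell types differed in level: granulocyte genes reached 0.318 and 0.28 CPM with 6 of 9 at 0, B cell genes 0.303 and 0.313 CPM with 1 of 8 at 0, T cell genes 0.0303 and 0.181 CPM with 4 of 9 at 0, endothelial genes 0.999 and 2.09 CPM with 2 of 5 at 0, macrophage genes 7.52 and 8.46 CPM and basophil genes 113 and 91.5 CPM with none at 0. The cells held globin transcripts at 6046 and 7660 CPM and mast cell transcripts at 2991 and 2761 CPM. The kept cells of both libraries shared 12 barcodes.

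Promoter sequences are shown for 4 factors to give the DNA from which transcripts of Gata1, Klf1, Gfi1b and Myb start, since Gata1, Klf1 and Gfi1b have erythroid roles and Myb was lowest in the cells richest in globin. They are RefSeq sequences on GRCm38.p6, from 250 bases before to 50 bases after a start site. RefSeq windows matched 7 of the 10 factors. Capitals mark the letters AGATAA or TGATAA, which GATA factors can bind, and CCNCNCCC, a CACC-like box, on either strand. AGATAA or TGATAA occurred in 18.6% and CCNCNCCC in 49.5% of 32851 promoter windows of the same length, and the GATA and CACC letters do not overlap in these 4 windows. Myb, on the minus strand at chr10:21160935-21161234, held 4 CACC-like boxes and no GATA letters, Gata1, on the minus strand at chrX:7967861-7968160, held 3 CACC-like boxes and no GATA letters, Gfi1b, on the minus strand at chr2:28621933-28622232, held 1 GATA match and 2 CACC-like boxes, and Klf1, on the plus strand at chr8:84901732-84902031, held 1 GATA match, written on the opposite strand.
Klf1: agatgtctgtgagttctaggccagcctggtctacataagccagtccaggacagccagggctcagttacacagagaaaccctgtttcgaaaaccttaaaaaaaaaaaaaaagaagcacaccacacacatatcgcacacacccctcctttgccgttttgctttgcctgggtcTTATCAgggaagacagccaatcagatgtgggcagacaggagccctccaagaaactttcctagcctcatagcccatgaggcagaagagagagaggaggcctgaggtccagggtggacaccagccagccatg
Gata1: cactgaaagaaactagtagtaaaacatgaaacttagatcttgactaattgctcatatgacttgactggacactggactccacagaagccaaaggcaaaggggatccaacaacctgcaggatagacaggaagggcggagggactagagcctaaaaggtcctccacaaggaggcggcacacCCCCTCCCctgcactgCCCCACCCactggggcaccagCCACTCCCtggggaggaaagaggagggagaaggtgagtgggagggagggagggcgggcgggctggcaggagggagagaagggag
Gfi1b: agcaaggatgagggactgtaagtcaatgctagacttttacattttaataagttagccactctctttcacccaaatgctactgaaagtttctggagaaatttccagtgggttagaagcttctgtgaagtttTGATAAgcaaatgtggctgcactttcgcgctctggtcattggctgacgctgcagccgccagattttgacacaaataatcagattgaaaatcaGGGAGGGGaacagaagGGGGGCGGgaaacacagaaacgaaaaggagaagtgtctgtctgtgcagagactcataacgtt
Myb: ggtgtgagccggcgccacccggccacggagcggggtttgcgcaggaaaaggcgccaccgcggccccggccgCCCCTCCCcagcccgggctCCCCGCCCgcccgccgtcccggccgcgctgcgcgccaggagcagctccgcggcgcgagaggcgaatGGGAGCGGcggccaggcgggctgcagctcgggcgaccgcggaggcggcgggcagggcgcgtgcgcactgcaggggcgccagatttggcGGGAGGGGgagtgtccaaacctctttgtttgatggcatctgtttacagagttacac

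A match of letters is a description of the sequence and no evidence of binding. The GATA letters of Klf1 began 80 bases before the start site and those of Gfi1b 120 bases before it.

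Among the erythroid factors, Gata1 (ENSMUSG00000031162, GRCm38 chrX:7959260-7978071), the zinc finger factor on which red cell and platelet formation depend, stood at 91.1 CPM (interval 88.8 to 93.4) in the oil-labelled library and 96.4 CPM (93.9 to 98.9) in the tamoxifen-labelled library. Klf1 (ENSMUSG00000054191, chr8:84901928-84905291), the activator of adult beta-globin, stood at 76.9 CPM (74.8 to 79.0) and 75.8 CPM (73.6 to 78.0). Zfpm1 (ENSMUSG00000049577, chr8:122282141-122337251), which encodes the GATA1 cofactor FOG1, stood at 75.5 CPM (73.4 to 77.6) and 83.4 CPM (81.1 to 85.7). The intervals of Gata1 and of Zfpm1 did not overlap between the libraries, and those of Klf1 did. Gfi1b (ENSMUSG00000026815, chr2:28609450-28621982), a repressor that growth of erythroid and megakaryocytic cells needs, was low at 38.4 CPM (36.9 to 39.9) and 36.4 CPM (34.9 to 37.9). Nfe2 (ENSMUSG00000058794, chr15:103248212-103258403), the DNA-binding subunit of a factor that acts in globin regulation and platelet release, stood at 38.0 CPM (36.6 to 39.5) and 34.6 CPM (33.1 to 36.1).

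Of the core complex, Lmo2 and Tal1 lay above the erythroid factors in both libraries. Lmo2 (ENSMUSG00000032698, chr2:103957986-103981878), the bridge between its DNA-binding partners, was at 130.6 CPM (127.9 to 133.4) in the oil-labelled library and at 114.7 CPM (112.1 to 117.5) in the tamoxifen-labelled library. Tal1 (ENSMUSG00000028717, chr4:115056426-115071755), the basic helix-loop-helix factor that blood formation requires, was at 116.5 CPM (114.0 to 119.2) and 113.9 CPM (111.2 to 116.6). Ldb1 (ENSMUSG00000025223, chr19:46031570-46045214), which links complexes on distant enhancers, was at 93.9 CPM (91.6 to 96.3) and 98.5 CPM (96.0 to 101.0). The intervals of Ldb1 overlapped those of Gata1 in both libraries.

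Of the progenitor factors, Myb (ENSMUSG00000019982, chr10:21124935-21160984) had the highest level of all 10, at 183.8 CPM (180.6 to 187.1) and 197.4 CPM (193.9 to 201.0). Spi1 (ENSMUSG00000002111, chr2:91082390-91115756) stood at 91.7 CPM (89.4 to 94.0) and 84.5 CPM (82.2 to 86.8). Its interval overlapped that of Gata1 in the oil-labelled library and lay below it in the tamoxifen-labelled library. In the oil-labelled library the order was Myb, Lmo2, Tal1, Ldb1, Spi1, Gata1, Klf1, Zfpm1, Gfi1b and Nfe2, and the neighbours Ldb1 and Spi1, Spi1 and Gata1, Klf1 and Zfpm1, and Gfi1b and Nfe2 overlapped in their intervals. In the tamoxifen-labelled library the order was Myb, Lmo2, Tal1, Ldb1, Gata1, Spi1, Zfpm1, Klf1, Gfi1b and Nfe2, with overlap between Lmo2 and Tal1, Ldb1 and Gata1, Spi1 and Zfpm1, and Gfi1b and Nfe2. All 10 are protein-coding genes. Zfpm1 was the one that shares its strand with another annotated gene, Gm20388, which had 0 UMIs in both libraries, so part of the reads of Zfpm1 may have been set aside as ambiguous.

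The ratio of the libraries was small for every factor. Lmo2 had a log2 ratio of tamoxifen over oil of -0.19 (interval -0.23 to -0.14), Nfe2 of -0.14 (-0.22 to -0.054) and Spi1 of -0.12 (-0.17 to -0.065). On the other side, Zfpm1 had a log2 ratio of 0.14 (0.086 to 0.20), Myb of 0.10 (0.066 to 0.14), Gata1 of 0.081 (0.029 to 0.13) and Ldb1 of 0.069 (0.018 to 0.12). The log2 ratio of Gfi1b was -0.077 (-0.16 to 0.0057), that of Tal1 -0.034 (-0.081 to 0.014) and that of Klf1 -0.021 (-0.079 to 0.037). Thus 4 factors had an interval above 0, where 19.3% of the 10527 genes with at least 100 UMIs did, 3 had one below 0, where 39.8% of genes did, and 3 had one that held 0. With TMM scaling 4 were above and 1 below 0, with median-ratio scaling 4 and 2, and with mitochondrial and ribosomal protein genes left out of the total 5 and 1. The shares of all genes were taken with the full library totals alone, so they do not apply to these rescaled counts. No factor was 1.5-fold apart, while 2.09% of genes were at least 1.5-fold higher and 1.27% at least 1.5-fold lower in the tamoxifen-labelled library. The median log2 ratio was -0.027 over the factors and -0.063 over all genes measured.

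The ratios were recomputed under 13 alternatives of cell filter, removal of cells by doublet score, scaling and cell cycle band. The ranges over these alternatives are of the ratios alone, without their intervals. With TMM scaling, for example, 1 factor had an interval below 0. Lmo2 stayed below 0 with a range of -0.42 to -0.063, Nfe2 with -0.30 to -0.057 and Spi1 with -0.32 to -0.038. In the rest, S-high and G2M-high cells defined below, Lmo2 had -0.077, -0.063 and -0.15. Nfe2 had -0.29, -0.13 and -0.28 there, and Spi1 -0.32, -0.18 and -0.10. In cells split by mast cell transcripts, which was not among these alternatives, Nfe2 reached 0.10 (-0.072 to 0.28) and Spi1 0.052 (-0.043 to 0.15). Zfpm1 stayed above 0 with 0.053 to 0.45 and Ldb1 with 0.016 to 0.35. Gata1 came to -0.099 in the cells that passed a stricter filter, 673 labelled oil and 771 labelled tamoxifen, and Myb to -0.071 in the G2M-high cells alone. The median of the factors lay above 0, at 0.038 with TMM scaling, 0.036 with median-ratio scaling and 0.053 with a total that left out mitochondrial and ribosomal protein genes, and Klf1 and Tal1, whose intervals held 0, changed sign. Gfi1b, whose interval also held 0, came to 0.0033 in the last of these, and the median of the factors was 0.0095 in S-high cells alone.

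**Figure D1:**
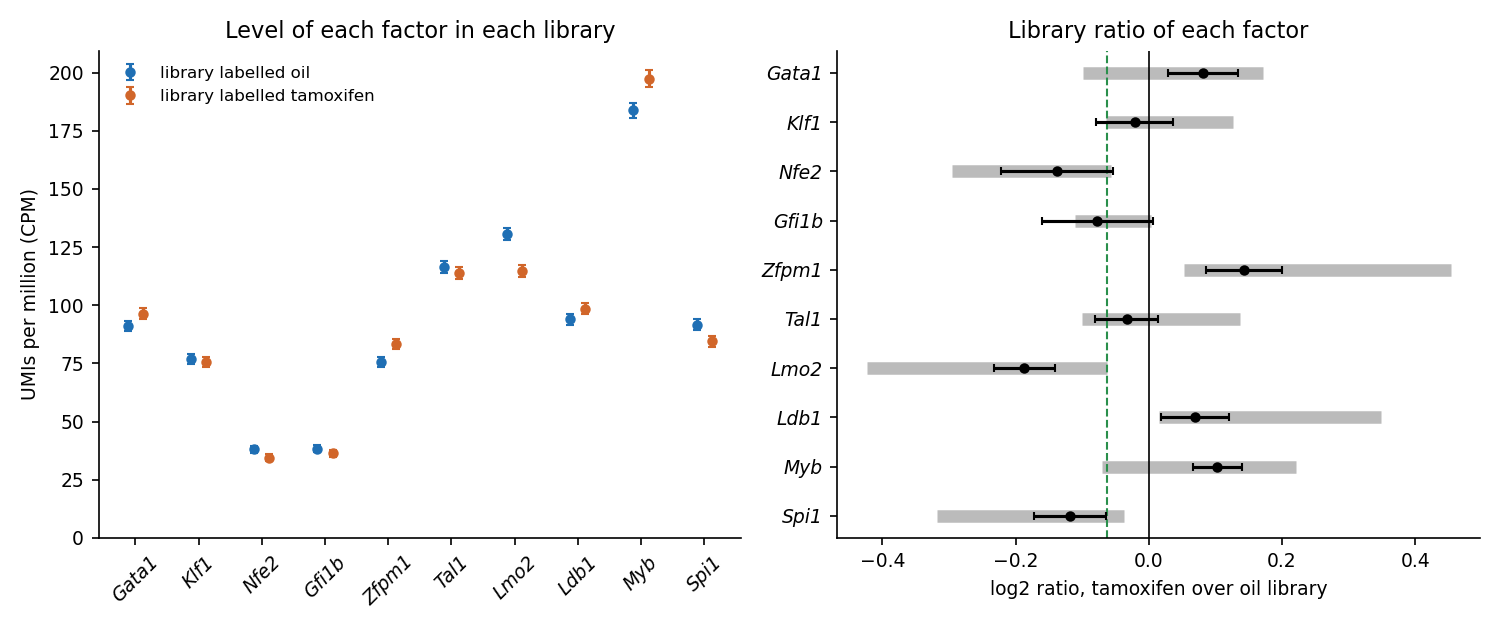
Left, level of each factor in CPM in the oil-labelled library and the tamoxifen-labelled library, with exact 95% counting intervals. Right, log2 ratio of tamoxifen over oil (black points with 95% counting intervals), the range over 13 alternatives of processing (grey bars), and the median of all genes at -0.063 (green dashed line). The ratios of Lmo2, Nfe2 and Spi1 lie below 0 and those of Zfpm1 and Ldb1 above 0 in all 13 alternatives, whose intervals are not drawn.

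Detection in single cells was compared after each cell was thinned to 3000 UMIs, which left 6330 and 6127 cells and set aside 508 and 345 shallower ones. Myb was found in 38.6% of cells labelled oil (interval 37.4 to 39.8) and 40.3% of cells labelled tamoxifen (39.0 to 41.5), the largest share. Gfi1b was found in 9.84% (9.12 to 10.6) and 9.58% (8.86 to 10.3), the smallest. Without thinning the shares were 65.7% and 66.1% for Myb and 24.9% and 23.4% for Gfi1b, so depth sets much of what is seen. The remaining factors had thinned shares of 11.97% to 30.7% in the oil-labelled library and 10.1% to 29.8% in the tamoxifen-labelled library. The largest differences in points, tamoxifen minus oil, were -2.44 for Spi1 (-3.96 to -0.911), 2.25 for Zfpm1 (0.801 to 3.70), -2.08 for Lmo2 (-3.64 to -0.527) and -1.91 for Nfe2 (-3.003 to -0.806), and the intervals of the other 6 held 0. These intervals take single cells as units and say nothing of the spread between mice, and no share of all genes was taken for them. No cell type that should lack these genes was present in number, so the part of free RNA in these shares was not tested.

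Most cells held transcripts of several factors at once. After thinning, 7.41% of cells labelled oil and 7.23% of cells labelled tamoxifen had none of the 10, the most frequent number was 2, in 28.4% and 29.6% of cells, and the highest number was 7 in the oil-labelled library and 8 in the tamoxifen-labelled library. In the full counts 39 cells labelled oil and 46 labelled tamoxifen held all 10. Cells that had a UMI of Myb carried on average 2.70 and 2.80 of them, cells that had Lmo2 2.35 and 2.11, and cells that had Nfe2 1.32 and 1.36, so at full depth the rarer factors were mostly seen as single molecules.

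Globin transcripts varied widely among cells. The thinned cells were cut into 4 bands at the quartiles of their summed globin UMIs over both libraries, at 1, 3 and 18 UMIs, and the full counts of each factor were summed per band. The bands are ranges and not cell types: 2708 and 2740 cells lay within 1 UMI of the lowest cut and 163 and 134 within 1 UMI of the highest. Medians of 0 globin UMIs per thinned cell in band 1 stood against 46 and 52 in band 4.

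Nfe2 differed the most between the bands on the high side. It went over the bands from 24.1 to 29.1, 33.9 and 67.4 CPM in the oil-labelled library and from 21.8 to 24.0, 31.1 and 62.6 CPM in the tamoxifen-labelled library, with the widest step before the highest band. Its log2 ratio of band 4 over band 1 was 1.48 (1.33 to 1.64) and 1.52 (1.35 to 1.69). Lmo2 went from 102.7 to 159.8 CPM and from 88.5 to 142.2 CPM, with log2 ratios of 0.64 (0.55 to 0.72) and 0.69 (0.59 to 0.78). Its level was higher at each step, with no late step like that of Nfe2. Klf1 went from 63.8 to 93.5 CPM and from 59.7 to 100.8 CPM, with log2 ratios of 0.55 (0.44 to 0.66) and 0.76 (0.64 to 0.87), past 1.5-fold in the tamoxifen-labelled library alone.

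Myb ran the other way. Its level went over the globin bands from 247.0 to 195.2, 155.8 and 114.6 CPM in the oil-labelled library and from 267.3 to 208.2, 164.6 and 130.6 CPM in the tamoxifen-labelled library, a log2 ratio of -1.11 (-1.19 to -1.03) and -1.03 (-1.11 to -0.957). Band 4 therefore held 0.464 and 0.489 times the Myb level of band 1. Smaller shifts were seen for Zfpm1 with log2 ratios of 0.52 and 0.50, Spi1 with 0.44 and 0.37, Gata1 with 0.33 and 0.41, Tal1 with 0.35 and 0.26, and Ldb1 with -0.14 and -0.25. Those of Gfi1b, 0.11 and 0.017, had intervals that held 0. The factor of myeloid fate, Spi1, was thus higher and not lower in globin-rich cells of both libraries.

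Past 1.5-fold in both libraries were 2 factors on the high side, Nfe2 and Lmo2, where 5.04% of the 10008 genes measured in these bands were, and 1 on the low side, Myb, where 5.72% of genes were. The medians over all genes were -0.055 and -0.074. Over 8 alternatives, among them removal of the top 6% of cells by doublet score or by UMIs, the log2 ratio of Nfe2 ranged from 1.22 to 1.68 in the oil-labelled and 1.52 to 1.86 in the tamoxifen-labelled library, and that of Myb from -1.52 to -1.03 and from -1.32 to -0.84. Lmo2 ranged from 0.41 to 0.76 and from 0.41 to 1.12, on both sides of 1.5-fold. The doublet caller marked 0.073% and 0% of cells, so removal by its score does not tell how doublets bear on these ratios. Of the 34 measured genes of the erythroid list, which holds heme, membrane and surface genes of red cells, 19 were past 1.5-fold higher in band 4 in both libraries and 1 was lower. Mast cell genes differed in both directions in band 4, with log2 ratios of 5.20 and 4.90 for Mcpt1, 4.51 and 4.12 for Mcpt2, 3.19 and 2.87 for Mcpt4, -2.16 and -2.72 for Cpa3 and -1.07 and -1.85 for Fcer1a, and their part in the levels of Nfe2 and Spi1 was not tested. Kit was lower in band 4, at 120 against 223 CPM and at 153.6 against 335 CPM. Bands 1 and 4 differed less in depth, with medians of 9334 and 7982 UMIs per cell in the oil-labelled library and 7776 and 8251 in the tamoxifen-labelled library.

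**Figure D2:**
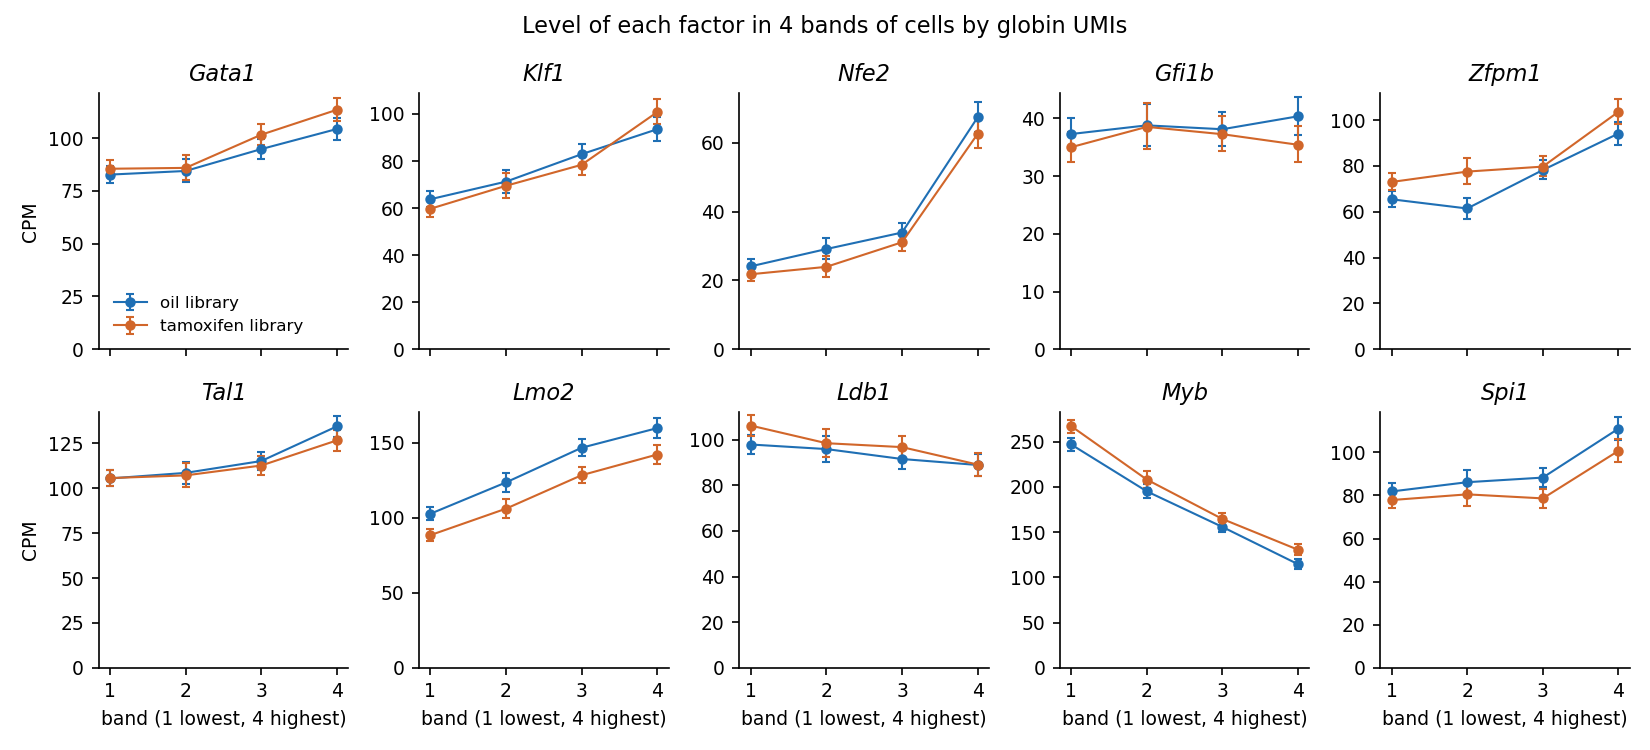
Level of each factor in CPM (vertical axes from 0) in 4 bands of cells by globin UMIs, band 1 lowest and band 4 highest, in the oil-labelled library (blue) and the tamoxifen-labelled library (orange), with exact 95% counting intervals. Nfe2 reaches 67.4 and 62.6 CPM in band 4, Lmo2 and Klf1 are higher at each step, and Myb is lower at each step and ends at 114.6 and 130.6 CPM.

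Bands by mast cell transcripts, among them the proteases Mcpt1 and Cpa3 and the IgE receptor chains Ms4a2 and Fcer1a, were cut in the same way at 3, 6 and 14 UMIs. Within 1 UMI of the lowest cut lay 1655 and 1578 cells, and within 1 UMI of the highest 334 and 321. Band 4 cells differed from band 1 cells in more than these genes. They had medians of 5178 against 13050 UMIs per cell in the oil-labelled library and 5460 against 11640 in the tamoxifen-labelled library, and 10.1% against 74.0% and 5.03% against 51.7% of them were high in cell cycle genes. Kit, on which the cells had been sorted, stood at 478 against 71.3 CPM and 691 against 76.9 CPM. The medians of all genes were 0.20 and 0.19, and 26.8% of the 9970 genes measured were at least 1.5-fold higher and 15.3% at least 1.5-fold lower in band 4 in both libraries.

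Against that background, Lmo2 was lower in each band richer in mast cell transcripts, going from 168.5 to 131.5, 97.2 and 75.5 CPM in the oil-labelled library and from 145.7 to 116.5, 89.3 and 61.7 CPM in the tamoxifen-labelled library. Its log2 ratio of band 4 over band 1 was -1.16 (-1.27 to -1.04) and -1.24 (-1.37 to -1.11). It was the 1 factor past 1.5-fold lower in both libraries. Klf1 followed with 91.6 against 50.4 CPM and 81.5 against 58.4 CPM, log2 ratios of -0.86 (-1.005 to -0.72) and -0.48 (-0.62 to -0.34), of which the first alone passed 1.5-fold.

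Higher past 1.5-fold in both libraries were 4 factors. Nfe2 went from 28.6 to 68.9 CPM and from 25.4 to 53.2 CPM, with log2 ratios of 1.27 (1.11 to 1.42) and 1.07 (0.89 to 1.24). Myb went from 127.6 to 260.2 CPM and from 128.6 to 266.9 CPM, with log2 ratios of 1.03 (0.95 to 1.10) and 1.05 (0.98 to 1.13). It was thus lower in globin-rich cells and higher in cells rich in the summed mast cell transcripts, the opposite of Lmo2. Single mast cell genes differed in this, as given below for detection. Spi1 went from 68.5 to 130.0 CPM and from 71.0 to 107.8 CPM, log2 ratios of 0.93 (0.82 to 1.03) and 0.60 (0.49 to 0.72), and Tal1 from 101.8 to 161.0 CPM and from 97.9 to 158.2 CPM, log2 ratios of 0.66 (0.57 to 0.75) and 0.69 (0.60 to 0.79). Within the cells that were low in cell cycle genes the log2 ratios were 1.05 and 0.71 for Nfe2, 0.81 and 0.88 for Myb, 0.70 and 0.71 for Tal1, -1.04 and -1.10 for Lmo2, and 0.37 and 0.25 for Spi1. Spi1 therefore lay under 1.5-fold in those cells. Over 8 alternatives the log2 ratio of Myb ranged from 0.56 to 1.22 in the oil-labelled and 0.40 to 1.49 in the tamoxifen-labelled library. That of Spi1 ranged from 0.37 to 1.06 and from 0.25 to 0.69, so both factors lay on both sides of 1.5-fold. Nfe2 (1.05 to 1.40 and 0.71 to 1.11), Tal1 (0.63 to 1.11 and 0.67 to 0.87) and Lmo2 (-1.41 to -1.045 and -1.56 to -1.02) stayed past it.

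Zfpm1, with log2 ratios of 0.53 and 0.37, and Ldb1, with 0.42 and 0.45, were higher in mast band 4 by less than 1.5-fold. Gata1 had 0.0017 (-0.11 to 0.11) and -0.20 (-0.31 to -0.078), and Gfi1b -0.18 (-0.37 to -0.0049) and 0.034 (-0.16 to 0.23), so neither had 1 direction in both libraries. Gata2, the GATA factor of stem and mast cells, had 0.83 (0.77 to 0.88) and 0.87 (0.80 to 0.93) in the same contrast.

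**Figure D3:**
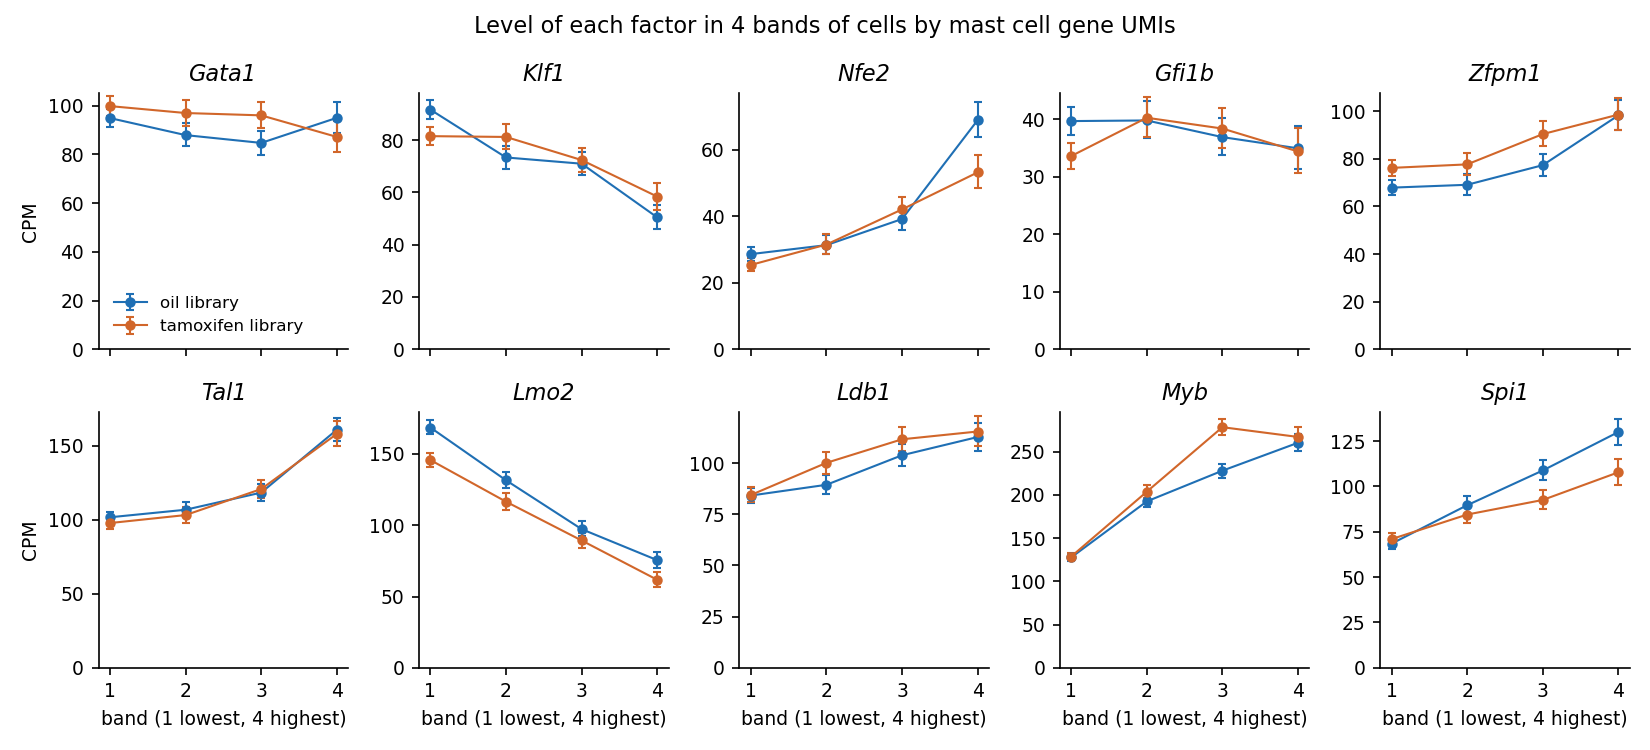
Level of each factor in CPM (vertical axes from 0) in 4 bands of cells by mast cell gene UMIs, band 1 lowest and band 4 highest, in the oil-labelled library (blue) and the tamoxifen-labelled library (orange), with exact 95% counting intervals. Lmo2 and Klf1 are lower in band 4 than in band 1, Nfe2, Myb, Spi1 and Tal1 are higher, and Gata1 and Gfi1b have no common direction.

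The highest globin band held 24.96% and the highest mast band 25.37% of thinned cells labelled oil, against 24.76% and 23.03% labelled tamoxifen. The overlap that independent bands would give was not taken, so cells in both bands are not read as a population of their own. Cells high in both kinds of transcript, 463 labelled oil (7.31% of thinned cells) and 349 labelled tamoxifen (5.70%), had the highest Nfe2 level, 126.1 CPM (113.2 to 140.1) and 100.5 CPM (87.7 to 114.7). In cells in neither highest band it was 25.9 and 23.6 CPM, in cells of the highest globin band alone 53.9 and 55.7 CPM, and in cells of the highest mast band alone 46.0 and 37.2 CPM. Zfpm1, Tal1 and Spi1 were also highest in cells of both bands, at 125.4 and 130.5 CPM for Zfpm1, 185.5 and 200.6 CPM for Tal1, and 170.9 and 147.8 CPM for Spi1, against 66.1 and 74.4, 103.0 and 102.6, and 80.6 and 76.1 CPM in cells of neither. Lmo2 was highest in cells of the globin band alone, at 176.8 and 155.8 CPM, and low in cells of both bands, at 85.7 and 67.3 CPM. Myb was highest in cells of the mast band alone, at 294.4 and 304.2 CPM. How many of the cells in both bands were doublets was not tested, since the doublet caller marked 0.073% and 0% of cells and so did not work here.

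**Figure D4:**
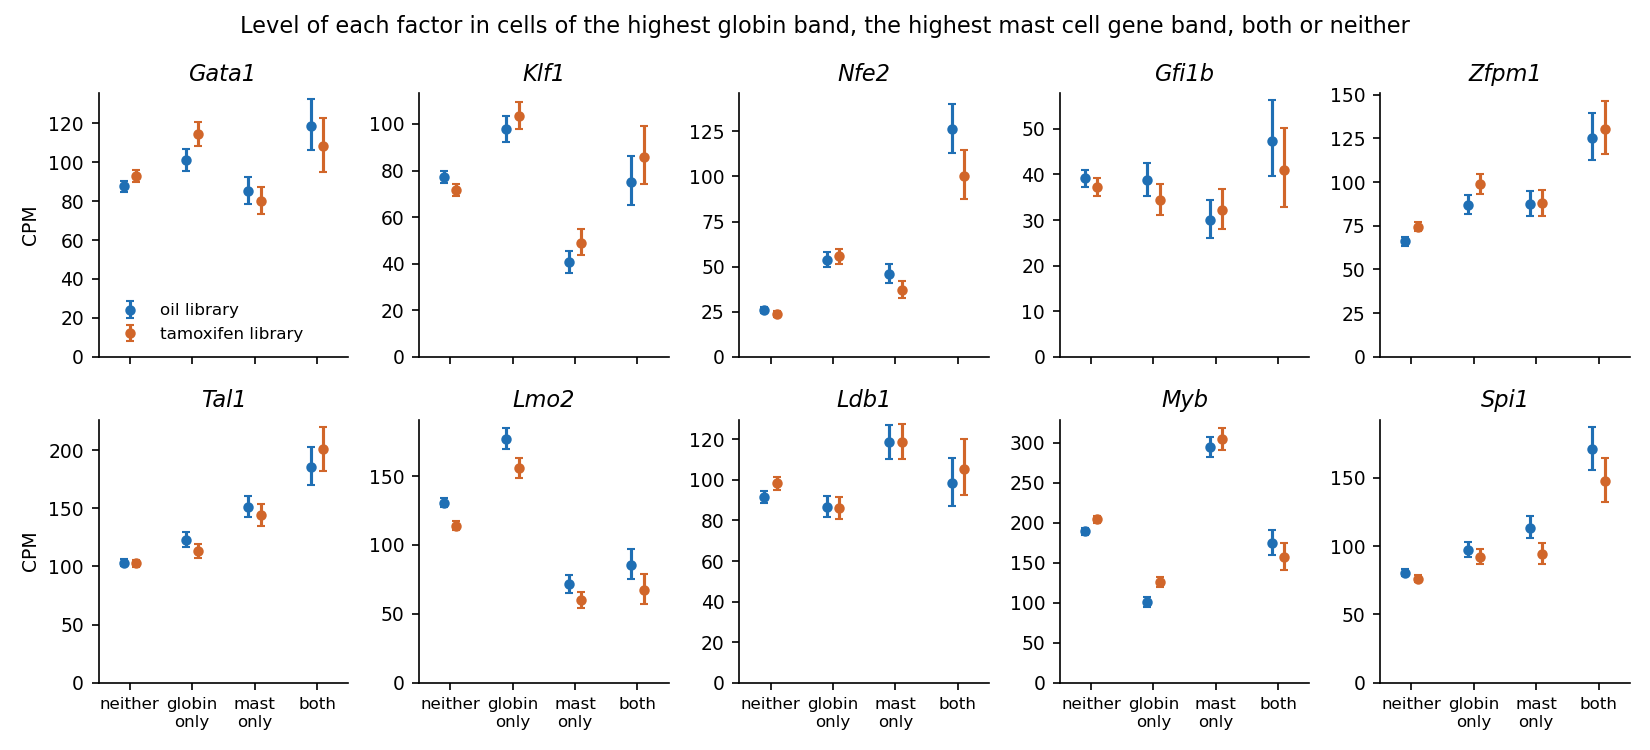
Level of each factor in CPM (vertical axes from 0) in cells of neither highest band, of the highest globin band only, of the highest mast cell gene band only, and of both, in the oil-labelled library (blue) and the tamoxifen-labelled library (orange), with exact 95% counting intervals. Nfe2, Tal1, Spi1 and Zfpm1 are highest in cells of both bands, Lmo2 in cells of the globin band only, and Myb in cells of the mast band only.

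The factors also differed with cell cycle genes. Cells were called G2M-high above 10 UMIs of a G2M list, otherwise S-high above 7 UMIs of an S list, and rest if neither. The library labelled oil had 3455 rest, 1126 S-high and 1749 G2M-high cells, and the tamoxifen-labelled library 4251, 630 and 1246, so 54.6% and 69.4% were rest. In all, 424 and 266 cells lay within 1 UMI of the G2M cut.

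Gfi1b was highest in S-high cells of both libraries, at 59.3 CPM in the oil-labelled library and 55.8 CPM in the tamoxifen-labelled library, against 38.7 and 36.6 CPM in rest cells and 26.1 and 25.9 CPM in G2M-high cells. Its log2 ratio of S-high over rest was 0.61 in both libraries (intervals 0.48 to 0.75 and 0.46 to 0.76), and that of G2M-high over rest was -0.57 (-0.71 to -0.43) and -0.50 (-0.66 to -0.34). Lmo2 was highest in G2M-high cells, at 166.2 and 149.9 CPM against 100.5 and 95.3 CPM in rest cells. These 2 factors had their highest levels in different bands in both libraries.

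Spi1 and Nfe2 were highest in rest cells. Spi1 stood at 124.9 and 100.2 CPM there and at 70.6 and 65.7 CPM in G2M-high cells, log2 ratios of -0.82 (-0.91 to -0.74) and -0.61 (-0.71 to -0.51). Nfe2 stood at 52.4 and 42.7 CPM in rest cells and at 24.8 and 22.8 CPM in S-high cells, log2 ratios of -1.08 (-1.25 to -0.91) and -0.91 (-1.13 to -0.70). Myb went from 218.4 and 226.6 CPM in rest cells to 152.9 and 145.6 CPM in G2M-high cells. Klf1 had 63.5 and 69.3 CPM in rest cells, 81.5 and 85.9 CPM in S-high cells and 87.9 and 84.1 CPM in G2M-high cells, Gata1 87.1 and 89.98 against 96.7 and 108.9 CPM, and Tal1, Ldb1 and Zfpm1 were lower in S-high and G2M-high cells than in rest cells of both libraries. S-high and G2M-high cells had medians of 12850 to 14250 UMIs and rest cells of 6581 and 6955, and the part of depth in these differences was not tested beyond scaling each band to its own total. Median mast cell UMIs per thinned cell were 12 and 9 in rest, 3 and 3 in S-high and 4 and 3 in G2M-high cells. The part of mast cell gene content in these differences was not tested, and no share of all genes was taken for this contrast.

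**Figure D5:**
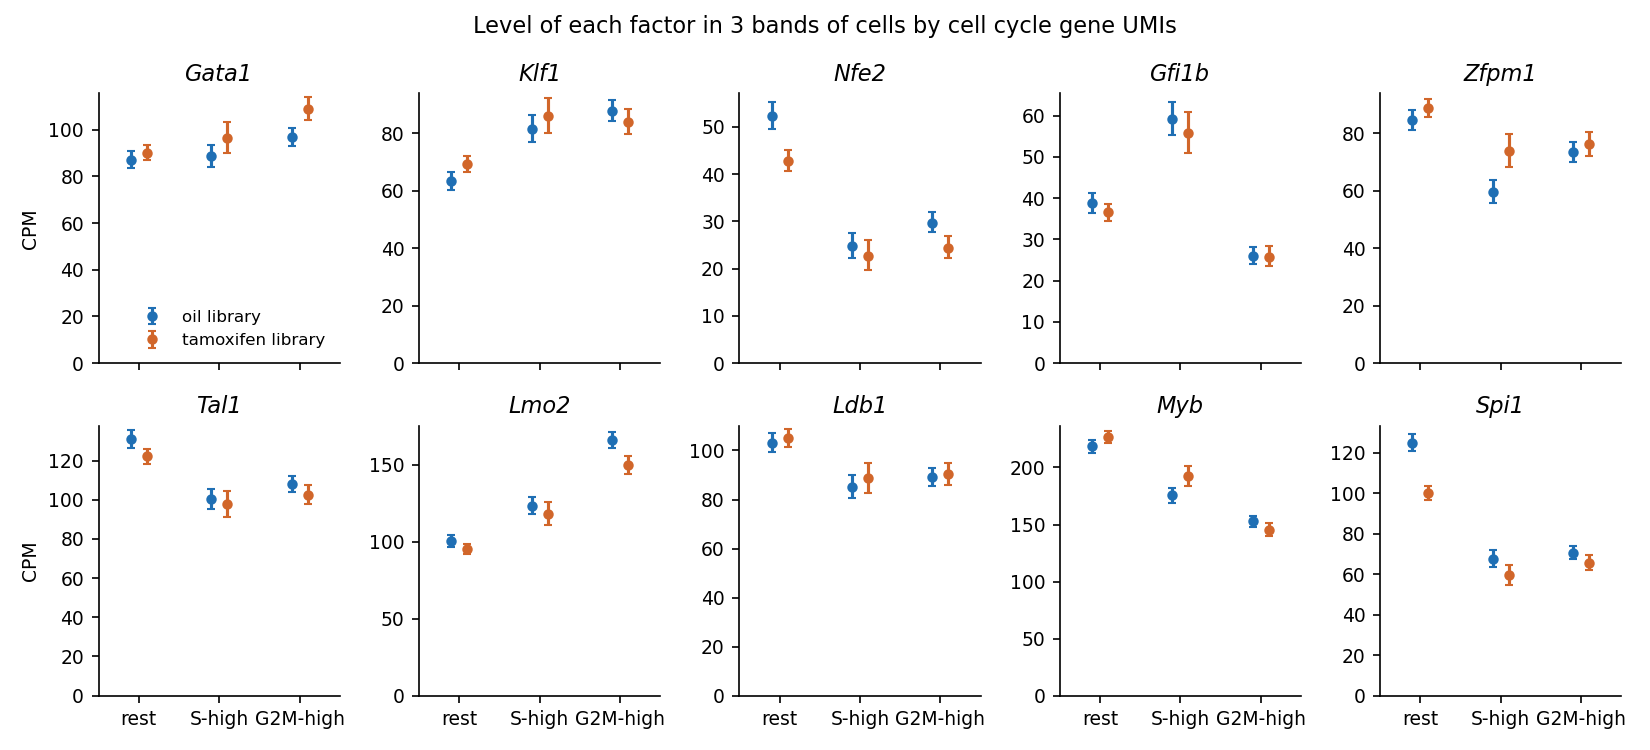
Level of each factor in CPM (vertical axes from 0) in rest, S-high and G2M-high cells of the oil-labelled library (blue) and the tamoxifen-labelled library (orange), with exact 95% counting intervals. Gfi1b peaks in S-high cells at 59.3 and 55.8 CPM, Lmo2 in G2M-high cells, and Spi1 and Nfe2 in rest cells.

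Detection in thinned cells was compared beside at least 1 globin or mast cell UMI. Klf1 was seen in 19.0% of cells labelled oil that had a globin UMI (18.0 to 20.1) and in 14.4% of those that had none (12.4 to 16.5), and in 20.1% (19.0 to 21.2) and 10.9% (9.18 to 12.9) of cells labelled tamoxifen. Lmo2 was seen in 29.2% and 21.7%, and in 27.5% and 18.2%. Nfe2 was seen in 12.9% and 8.10%, and in 10.7% and 7.23%. These 3 were the factors with separate intervals on the high side in both libraries, against 2 with thinning to 5000 UMIs, and Myb was the 1 on the low side, in 35.6% (34.2 to 36.9) of globin-positive and 51.6% (48.7 to 54.4) of globin-negative cells labelled oil and in 38.1% and 49.9% labelled tamoxifen. The share of all genes with separate intervals was not taken, so these counts do not tell whether the factors differ from other genes. Gata1 differed little, with 24.3% against 21.9% and 25.1% against 22.8%, and its intervals overlapped.

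Nearly all thinned cells, 6004 of 6330 and 5722 of 6127, had a mast cell UMI, so cells without one were few. Myb was seen in 39.4% (38.2 to 40.7) of cells with and 22.7% (18.3 to 27.6) of cells without one in the oil-labelled library, and in 41.7% (40.4 to 42.9) and 20.5% (16.7 to 24.8) in the tamoxifen-labelled library. Lmo2 was seen in 27.1% (26.0 to 28.3) and 40.8% (35.4 to 46.4), and in 24.9% (23.8 to 26.1) and 37.3% (32.6 to 42.2). Tal1, with 30.8% against 28.2% and 30.0% against 26.4%, and Spi1, with 26.8% against 20.9% and 24.3% against 20.3%, had intervals that overlapped in both libraries, and Nfe2 had 12.1% against 10.4% with overlap in the oil-labelled library and 10.4% against 5.68% without it in the tamoxifen-labelled library. For Klf1 the libraries parted, with 17.6% against 28.8% in the oil-labelled library and 18.3% against 19.3% in the tamoxifen-labelled library, where the intervals overlapped. Single mast cell genes differed. Myb was seen in 49.97% of cells labelled oil with Cpa3 and 34.14% without it, and in 50.39% and 36.9% labelled tamoxifen. For Mcpt1 its intervals overlapped, with 35.04% against 39.08% and 42.11% against 40.04%. Nfe2 was seen in 24.55% of cells labelled oil with Mcpt1 and 10.05% without it, and in 20.89% and 8.878% labelled tamoxifen. For Cpa3 the intervals of Nfe2, Tal1 and Spi1 overlapped in both libraries. A globin UMI, a mast cell UMI and Gata1 were found together in 18.6% and 18.9% of cells, and for Myb the figures were 27.9% and 29.8%. Globin and mast cell UMIs were together in 4838 of 6330 and 4618 of 6127 cells. Gata1 was seen in 23.85% and 24.69% and Myb in 38.55% and 40.25% of all thinned cells. The share that independent detection would give was not taken, so these figures do not tell whether the 3 occur together more often than that.

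Between the factors themselves, pairs were found together about as often as their shares multiplied. Over 45 pairs the ratio of joint detection to that product ran from 0.831 to 1.41 with a median of 1.03. Nfe2 with Zfpm1, at 1.28 and 1.41, and Nfe2 with Tal1, at 1.18 and 1.21, were the 2 pairs detected together more often in both libraries, and Lmo2 with Myb, at 0.924 and 0.922, was the 1 detected together less often. Pairs of other genes were not counted in this way. For the pair often described as opposed, Gata1 and Spi1, the ratios were 1.03 and 1.02, in 412 and 372 cells. Tal1 with Lmo2, partners in 1 complex, gave 1.01 and 0.989. Without thinning 44 of 45 pairs were together more often, which shows how far depth sets this count.

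The genes most like each factor were ranked by Pearson's r of log-normalized counts over the kept cells of each library, among genes with at least 1000 UMIs. Such values over cells of the same library share its depth and are given as a description. Nfe2 went with Hba-a2 (r = 0.27 and 0.28), Csf2rb2, a cytokine receptor chain (0.27 and 0.27), and Hba-a1 (0.27 and 0.26). Lmo2 went with Car2 (0.30 and 0.29), Tmem14c (0.25 and 0.24) and the heme enzyme gene Cpox (0.28 and 0.24). Myb went with Lmo4 (0.28 and 0.32), Fam46a (0.28 and 0.30) and Slc7a8 (0.27 and 0.31), and Klf1 with Col5a1 (0.22 and 0.23), Tmem14c (0.22 and 0.21) and Prdx2 (0.22 and 0.21). No gene reached 0.2 in both libraries for the other 6 factors, and the closest for Gata1 was Prdx2 (0.12 and 0.13).

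The wider pathway was close between the libraries. Of 24 measured partners and regulators of these complexes, 8 had a log2 ratio interval above 0, 6 below 0 and 10 that held 0, with a median of 0.035, beside 19.3% above, 39.8% below and a median of -0.063 over all genes. At the ends were Lmo4, a LIM-only relative of Lmo2, at 403 and 555 CPM (log2 0.46), Runx1t1, the mouse gene of ETO, at 24.6 and 30.2 CPM (0.30), and Erg at 1.36 and 1.67 CPM (0.29), and on the other side Klf3 (-0.21), the E protein gene Tcf3 (-0.23) and Hdac2 (-0.27). The interval of Erg held 0. How far reads of the AE9a transgene were counted to Runx1t1 was not tested. Of 34 measured erythroid genes 8 were above and 16 below 0, with a median of -0.067, near the median of -0.063 over all genes. Rhag, of the Rh complex of red cells, stood at 33.1 and 69.6 CPM (1.07), Alas2, the first enzyme of red cell heme synthesis, at 10.2 and 15.0 CPM (0.56) and Hemgn at 1.30 and 1.71 CPM (0.40, interval -0.029 to 0.83), against Icam4 (-0.26), Alad (-0.29) and Car1 (-0.30). Over 13 alternatives the median of the partners ranged from -0.076 to 0.12 and that of the erythroid genes from -0.10 to 0.013, so neither kept 1 sign.

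Globin genes did not share 1 ratio. Hba-a2 stood at 520 and 915 CPM (log2 0.82), Hba-a1 at 2174 and 3263 CPM (0.59), Hbb-bs at 2309 and 2448 CPM (0.084) and Hbb-bt at 1042 and 1033 CPM (-0.011). Hba-a2 was past 1.5-fold, Hba-a1 lay on that threshold with an interval of 0.58 to 0.60, and neither beta-globin gene reached it. Of 9 measured mast cell genes 8 were below 0 and 1 above it, where 39.8% and 19.3% of all genes were, with a median of -0.28 that became 0.067 under the stricter cell filter, from Hdc, the histamine enzyme, at 589 and 736 CPM (0.32) down to Mcpt1 at 218 and 123 CPM (-0.82). Between them lay Ms4a2 (-0.097), Cpa3 (-0.13), Mcpt4 (-0.44) and Mcpt2 (-0.57). All 8 measured megakaryocyte genes lay between F2rl2 (-0.56) and Itga2b (0.52), 3 above and 4 below 0 beside the same shares of all genes, with Treml1 (-0.49), Gp1ba (-0.42), Rab27b (0.15) and F2r (0.26) among them.

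In the myeloid list 8 of 21 genes reached 100 UMIs, 0 above and 2 below 0, where 19.3% and 39.8% of all genes were, and Cebpa and Elane were at 0 in both libraries although Spi1 was not. Ctsg, at 1.41 and 0.643 CPM (log2 -1.13), and Cebpb (-0.25) were the 2 below 0, and Ms4a3 (0.079), Fcgr3 (0.038), Fcer1g (-0.015) and Tyrobp (-0.067) held 0 in their intervals. In the stem cell list 8 of 20 genes reached 100 UMIs, 2 above and 2 below 0, with Erg (0.29), Mllt3 (0.27) and Msi2 (0.14) at the top and Bmi1 (-0.18), Gata2 (-0.18) and Ikzf2, at 422.5 CPM in both libraries, at the bottom. Hoxa9, Hoxa10, Mecom, Prdm16, Flt3 and Angpt1 were at 0.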

How the data were processed

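The authors made the deposited UMI counts per gene and cell with Cell Ranger 3.0.2 (per the file headers) on mm10 from a 10x Genomics V3 library per group, and their processing notes also name Seurat. Nothing was normalized before deposit. Barcodes were kept from 500 detected genes upward and up to 10% mitochondrial UMIs, which left 6838 of 7774 and 6472 of 7311, with 66045700 and 60661486 UMIs. Scrublet marked 0.073% and 0% of them, so no doublets were removed and alternatives left out 6% of cells. UMI counts were summed per library or band and divided by the total, with exact Poisson intervals for CPM, conditional binomial intervals for ratios and Clopper-Pearson intervals for shares, all limited to counting error. Differences in shares have normal-approximation intervals over cells. Since each group had 1 library, no test was run, and edgeR 4.0.16 and DESeq2 1.42.0 gave scaling factors alone. For detection and bands, cells were thinned to 3000 UMIs, and full counts were summed in each band. Analyses used Python 3.11.15 with scanpy 1.11.5. Ratio intervals and thinning were tested on simulated data. Positions come from GENCODE on GRCm38.

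Named genes were all 10 factors, the 3 highest and 3 lowest ratios of each pathway list with at least 100 UMIs, and up to 3 genes with r of at least 0.2 in both libraries. Usp18 and Kit were named as the targeted gene and the sorted marker. The factors and lists were chosen with earlier results of these data known.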

Additional observations from a re-analysis of the deposited data

Results flagged for a closer look

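Klf1 had opposite ratios of tamoxifen over oil in cells of different mast cell gene content. In band 4 its log2 ratio was 0.21 (interval 0.029 to 0.39, from 483 and 507 UMIs), and in band 1 it was -0.17 (-0.25 to -0.084, from 2443 and 2038 UMIs). The difference between the bands was not tested, and the bands in between had log2 ratios of 0.15 and 0.028. Other factors changed sign over these bands too, but with an interval that held 0 on 1 side. Spi1 had 0.052 (-0.043 to 0.15) in band 1 and -0.27 (-0.39 to -0.15) in band 4. In bands 3 and 4 Nfe2 had 0.10 (-0.072 to 0.28) and -0.37 (-0.55 to -0.20), and Gata1 0.18 (0.064 to 0.30) and -0.12 (-0.27 to 0.017).

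The barcodes that failed the cell filter, 936 in the oil-labelled library and 839 in the tamoxifen-labelled library, also held the factors. All 10 lay above the limit of 3 counts in both libraries, from 31.7 CPM for Gfi1b to 225 CPM for Myb labelled oil and from 32.7 CPM for Nfe2 to 221 CPM for Myb labelled tamoxifen. The log2 ratio in these barcodes was -0.51 (-0.83 to -0.19) for Nfe2 and -0.35 (-0.56 to -0.15) for Spi1, and the intervals of the other 8 held 0.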

How the results depend on the processing

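With 1 library per group no alternative bears on the spread between mice. No paired analysis was possible because neither injection has a second library and no value comes from a test. At a minimum of 20 UMIs, 572 genes were at least 1.5-fold higher and 370 lower in the tamoxifen-labelled library, and at 500 UMIs 105 and 73, against 220 and 134 at 100 UMIs. Of the factors, 1 had a ratio interval below 0 under the stricter cell filter, in S-high cells alone, with TMM scaling and with a total that left out mitochondrial and ribosomal protein genes, and 2, 2 and 1 had one above 0 in rest, S-high and G2M-high cells. No share of all genes was taken under these settings. Subsets of cells hold fewer UMIs and so have wider intervals, and the part of this in the counts was not tested. The median of the factors became 0.038 with TMM, 0.036 with median-ratio scaling and 0.053 without mitochondrial and ribosomal protein genes, and was 0.0095 in S-high cells. TMM moved every ratio by 0.065 and median-ratio scaling by 0.063. Ratios turned for Gata1 under the stricter filter (-0.0991) and for Myb in G2M-high cells (-0.071), and the mast cell list median came to 0.067 under the stricter filter. The cause of these turns was not tested. Equal weight for every cell gave ratios but no counting interval, so it gave no count of factors.

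Detected beside mast cell genes more often in both libraries were 2 factors at 2000 UMIs and 2 at 5000, where 2 were more often beside globin in place of 3. Without thinning 4 were beside mast cell genes and 9 beside globin, and 0 were less often beside either. Pairs found together more often numbered 4 at 5000 UMIs and 44 without thinning. With the highest 10% of cells set against all others, 1 factor was 1.5-fold higher in globin-rich and 2 in mast-gene-rich cells, and 3 were lower in mast-gene-rich cells under the stricter filter. None of these alternative counts has a share of all genes beside it. Gata1 in the tamoxifen-labelled library turned in the mast contrast, to 0.00091 with the highest 10% of cells, 0.28 under the stricter filter and 0.033 in rest cells.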
